A study of Mus musculus with 12 samples.

Results

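The genes described here encode 10 checkpoint and costimulatory receptors of T cells, chosen by name from the deposited gene table, in which all 10 were found among 24502 genes. They are Cd28, Icos, Ctla4, Pdcd1, Btla, Tigit, Cd96, Cd226, Lag3 and Havcr2. RNA came from sorted mouse regulatory T cells (Treg cells, CD4+ T cells that restrain other immune cells), from animals aged 11 weeks. Of 12 libraries, 6 are from mice of the strain Foxp3CreGpx4fl/fl, in which Cre recombinase driven by Foxp3 removes a loxP-flanked Gpx4 gene in Foxp3-expressing cells (called Gpx4-deficient or KO), and 6 are from mice labelled WT (wild type). In each genotype 3 libraries are from cells kept for 4 h on plates coated with stimulating anti-CD3 and anti-CD28 (5 µg/ml), and 3 from unstimulated cells. The WT label names no Cre allele, so an effect of Cre and an effect of Gpx4 loss cannot be told apart. The labels give no culture time for the unstimulated cells, so stimulation and culture cannot be told apart either.

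T cells respond to antigen through the T cell receptor, and receptors of the CD28 family and the CD155-binding family set how strong that response becomes. CD28 and CTLA-4 compete for the ligands CD80 and CD86 on antigen-presenting cells. CD28 delivers costimulation, and CTLA-4, which Treg cells carry at high level, removes these ligands from the presenting cell. ICOS is an inducible relative of CD28 that binds ICOS ligand and sustains effector Treg cells. PD-1, the product of Pdcd1, and BTLA carry tyrosine motifs in their cytoplasmic tails that recruit phosphatases. TIGIT, CD96 and CD226 share the ligand CD155, with CD226 costimulatory and TIGIT inhibitory. LAG-3 binds MHC class II, and TIM-3, the product of Havcr2, is an inhibitory receptor of effector T cells and myeloid cells.

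Several of these genes are neighbours in the genome (GENCODE annotation of GRCm38, all protein-coding). Cd28 (chromosome 1, 60716800 to 60773359, plus strand), Ctla4 (60887000 to 60915832, plus) and Icos (60977927 to 61000320, plus) follow each other with 0 protein-coding genes between them, at gaps of 113.6 and 62.1 kb. Pdcd1 (94038305 to 94052553, minus) lies 33.0 Mb further along that chromosome. Tigit (43648867 to 43664146, minus), Btla (45224315 to 45257670, plus) and Cd96 (46035657 to 46120251, minus) lie on chromosome 16, with 21 protein-coding genes between Tigit and Btla and 11 between Btla and Cd96. Lag3 is on chromosome 6 (124904361 to 124911705, minus) and Havcr2 on chromosome 11 (46454935 to 46481255, plus), and Cd226 lies on yet another chromosome. Ctla4 overlaps the processed pseudogene Rpl18-ps1 and Icos the transcript Gm37039 (annotated as still to be tested), both on the plus strand, so some reads there may belong to either.

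Promoter sequences are shown for Ctla4 and Tigit, whose transcripts rose on stimulation, and for Cd96, whose transcript fell. Each runs from 250 bases before to 50 bases after the gene's start, 5′ to 3′ on the gene's own strand, from RefSeq annotation of GRCm38.p6, and capitals mark the NFAT core GGAAA or its reverse complement TTTCC. They lie at chr1:60908775-60909074 (plus strand), chr16:43664135-43664434 (minus strand) and chr16:46120199-46120498 (minus strand). The RefSeq start used for Ctla4 lies inside the longer GENCODE gene.
Ctla4: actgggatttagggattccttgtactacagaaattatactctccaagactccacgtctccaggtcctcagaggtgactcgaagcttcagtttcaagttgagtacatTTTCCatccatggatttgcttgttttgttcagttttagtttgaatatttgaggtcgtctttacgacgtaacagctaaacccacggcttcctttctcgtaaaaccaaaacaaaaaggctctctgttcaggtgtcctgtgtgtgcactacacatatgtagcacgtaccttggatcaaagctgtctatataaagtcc
Tigit: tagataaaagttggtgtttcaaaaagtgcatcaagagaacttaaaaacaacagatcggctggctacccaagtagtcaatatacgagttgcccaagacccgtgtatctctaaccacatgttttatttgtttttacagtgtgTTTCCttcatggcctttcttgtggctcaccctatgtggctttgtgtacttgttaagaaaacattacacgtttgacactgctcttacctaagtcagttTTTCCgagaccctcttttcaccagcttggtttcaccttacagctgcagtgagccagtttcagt
Cd96: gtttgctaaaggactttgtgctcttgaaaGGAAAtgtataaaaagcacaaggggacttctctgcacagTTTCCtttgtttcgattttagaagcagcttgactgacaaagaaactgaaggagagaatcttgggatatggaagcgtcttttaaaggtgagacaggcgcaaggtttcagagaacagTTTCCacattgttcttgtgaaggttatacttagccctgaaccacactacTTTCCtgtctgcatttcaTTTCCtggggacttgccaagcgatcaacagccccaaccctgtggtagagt

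NFAT is a family of calcium-activated factors that T cell receptor signals bring into the nucleus. The windows of 6 members were searched. The core had 1 match in the Ctla4 window, 2 each in those of Pdcd1 and Tigit, 5 in that of Cd96, and 0 in those of Btla and Havcr2. Of 32851 windows of 300 bases, 61.3% held at least 1 match, with a median of 1, so holding a match does not set a gene apart. How many windows held as many as the 5 of Cd96 was not counted. The AP-1 motif TGANTCA (7.81% of windows) had 1 match, in Havcr2. The CRE motif TGACGTCA (1.79%) and the NF-kB consensus (4.51%) had 0 matches in the 6 members searched. Both strands were read, and overlapping matches were counted. A match is a run of letters and not a measured binding site.

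Library totals ran from 24629230 to 31879267 counts. Levels are in CPM, counts divided by library sizes scaled with TMM factors. Gpx4 was at 3.34 to 9.23 CPM in stimulated KO and 69.2 to 107.5 CPM in stimulated WT libraries, and at 4.96 to 12.3 CPM in unstimulated KO and 141.9 to 172.1 CPM in unstimulated WT libraries. These ranges do not overlap, as the labels require. Foxp3 was present in each library, between 20.6 and 75.9 CPM, and 0 of 10 Treg markers had a group mean under 1 CPM. Stimulated KO replicate 3 (175.6 on principal component 2, against -79.0 and -62.6 in the other replicates) and unstimulated KO replicate 1 (64.8 against 25.2 and 14.9) lay apart from their groups. The stimulated KO libraries also had the most genes at 0 among those that reached 5 CPM elsewhere, 107 to 190 a library, against 25 to 69 in stimulated WT. Their mitochondrially encoded share was 2.52% to 3.25%, against 1.09% to 1.23% in stimulated WT. The library codes of KO and WT samples form blocks of their own, so genotype and any processing order cannot be told apart. Within each genotype the unstimulated and the stimulated libraries also have separate runs of codes, so the same holds for stimulation. Whether the 3 replicates of a group are different mice is not in the labels, and the p-values cover only the spread among these libraries, which may be technical. All 10 members passed the filter on low counts that left 14827 genes, and they were tested together with all of these by edgeR, with calls at an adjusted p under 0.05.

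**Figure D1:**
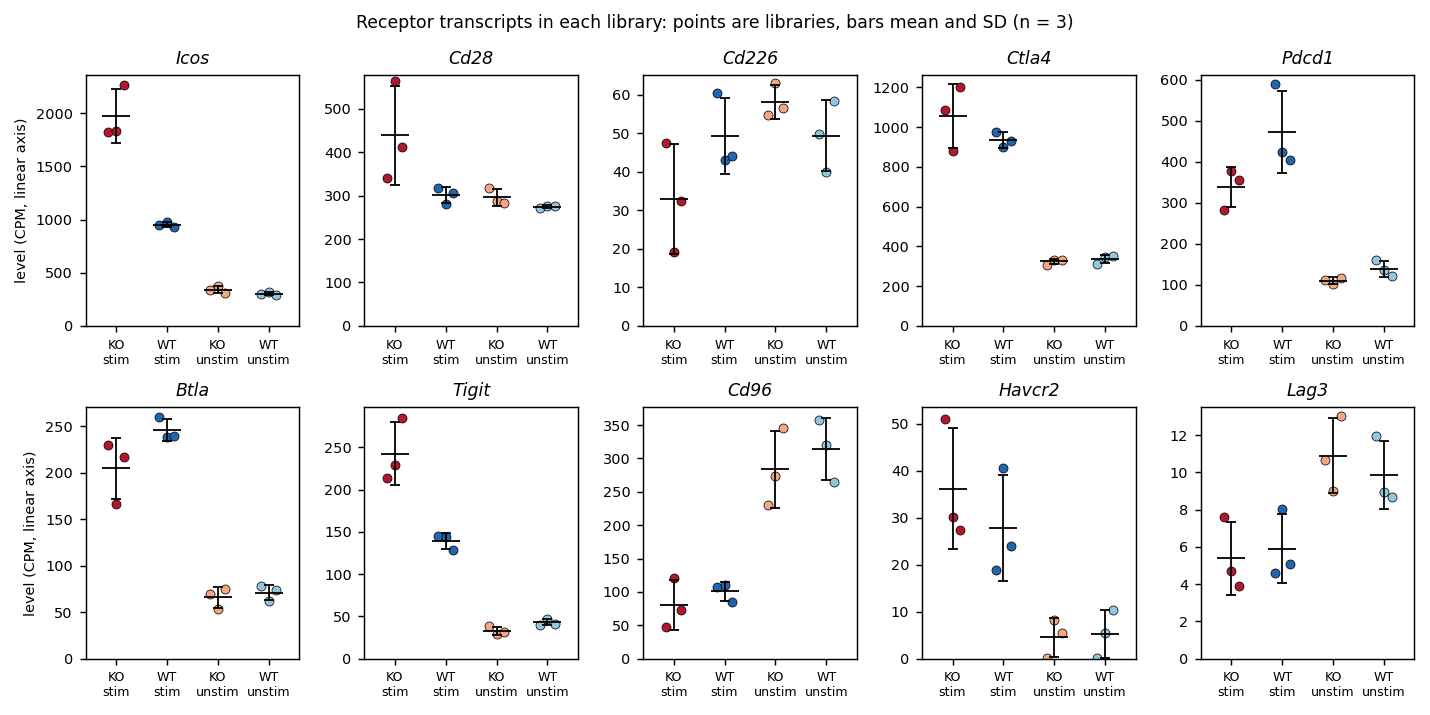
Levels of the 10 receptor transcripts in CPM (linear axes from 0) in the 12 libraries, by genotype and stimulation (KO, Gpx4-deficient; WT, wild type; stim, 4 h on antibodies to CD3 and CD28). Points are libraries, and bars give the mean and SD of 3. Icos in the 3 stimulated KO libraries lies at 1823 to 2265 CPM, above all other libraries, while Cd96 is high without stimulation.

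The first comparison asks which receptor transcripts change when Treg cells are stimulated. Icos, Ctla4, Pdcd1, Btla and Tigit rose in both genotypes, Cd96 fell in both, and Cd28 rose in KO cells. By edgeR, 6 of 10 members were higher and 1 lower in KO cells, where 7.45% of all tested genes were higher and 7.83% lower. In WT cells 5 were higher and 1 lower, against 6.12% and 5.41% of tested genes. The members include genes known to be induced by activation, so these shares describe the list and do not single it out. The median log2 fold change of the members was 1.62 in KO and 1.56 in WT cells, beside -0.02 and -0.03 over all tested genes. Several marker lists moved with stimulation in these libraries. The 10 Treg markers summed to 8865 to 9402 CPM in stimulated and 4369 to 4757 CPM in unstimulated KO libraries, and to 8533 to 9108 CPM in stimulated and 4366 to 4492 CPM in unstimulated WT libraries. The 5 plasma cell markers, mostly Xbp1, summed to 492.6 to 548.2 CPM in stimulated and 202.1 to 284.3 CPM in unstimulated KO libraries, and to 361.9 to 411.6 CPM in stimulated and 219.0 to 254.4 CPM in unstimulated WT libraries. The 8 markers of conventional CD4 T cells were lower, at 1318 to 1711 CPM in stimulated and 1711 to 2260 CPM in unstimulated KO libraries (ranges that nearly touch), and at 1654 to 2219 CPM in stimulated and 2277 to 2390 CPM in unstimulated WT libraries. In WT cells the 8 B cell markers (16.998 to 24.0 CPM in stimulated and 42.9 to 55.4 CPM in unstimulated libraries) and the 8 erythroid and platelet markers (8.53 to 23.5 CPM in stimulated and 44.8 to 62.9 CPM in unstimulated libraries) were also lower. Their part in the receptor changes was not tested.

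Icos had the largest log2 fold change of the CD28 relatives in KO cells. It stood at 1823, 1834 and 2265 CPM in stimulated KO libraries, against 333.2, 377.9 and 310.2 CPM in unstimulated KO libraries. In WT cells it stood at 947.3, 974.4 and 927.7 CPM with stimulation, against 298.0, 321.8 and 289.3 CPM without it. The stimulated libraries were thus all above the unstimulated ones in each genotype. By edgeR the log2 fold change was 2.54 (SE 0.11, adjusted p = 7.35e-08) in KO cells and 1.65 (SE 0.11, adjusted p = 1.25e-06) in WT cells.

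Ctla4 rose by a similar amount in both genotypes. It stood at 1084, 881.1 and 1204 CPM in stimulated KO libraries, against 308.3, 332.0 and 332.6 CPM in unstimulated KO libraries. In WT cells the values were 976.8, 899.2 and 932.1 CPM with stimulation, against 311.1, 346.6 and 349.4 CPM without it. Stimulated and unstimulated libraries did not overlap. By edgeR the log2 fold changes were 1.70 (SE 0.12, adjusted p = 1.59e-06) in KO and 1.48 (SE 0.11, adjusted p = 4.46e-06) in WT cells.

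The inhibitory receptors Pdcd1, Btla and Tigit also rose. Pdcd1 was at 282.8, 376.9 and 355.3 CPM in stimulated KO libraries, against 111.0, 102.8 and 117.8 CPM in unstimulated KO libraries (log2 fold change 1.61, SE 0.17). In WT cells Pdcd1 was at 588.4, 423.6 and 405.1 CPM with stimulation, against 159.9, 135.4 and 121.9 CPM without it (1.76, SE 0.17). PD-1 transcripts were thus lowest in the unstimulated libraries of both genotypes, and stimulated WT replicate 1 held the highest value. Btla averaged 204.6 ± 33.3 CPM in stimulated and 65.9 ± 11.2 CPM in unstimulated KO cells (1.64, SE 0.18), and 246.1 ± 12.1 CPM in stimulated and 71.1 ± 8.37 CPM in unstimulated WT cells (1.79, SE 0.18; SD, n = 3 each). Tigit was at 213.8, 229.1 and 284.5 CPM in stimulated KO libraries, against 38.1, 29.2 and 31.2 CPM in unstimulated KO libraries (2.88, SE 0.18). In WT cells Tigit was at 145.7, 143.8 and 128.6 CPM with stimulation, against 40.4, 47.0 and 41.2 CPM without it (1.70, SE 0.17). The edgeR adjusted p of these 3 genes lay between 6.43e-07 and 7.44e-05 over both genotypes, and no stimulated library overlapped an unstimulated library of its genotype.

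Cd96, a CD155 receptor of T and NK cells, was the member that fell. It was at 47.0, 120.9 and 72.7 CPM in stimulated KO libraries, against 230.6, 274.0 and 345.5 CPM in unstimulated KO libraries (edgeR log2 fold change -1.82, SE 0.30, adjusted p = 0.00143). In WT cells it was at 107.4, 111.1 and 84.3 CPM with stimulation, against 357.4, 320.0 and 264.9 CPM without it (-1.64, SE 0.30, adjusted p = 0.00298). The groups were separate in each genotype. The summed level of 10 CD8 and NK cell markers also differed, at 24.7 to 40.05 CPM in stimulated and 65.0 to 117.2 CPM in unstimulated KO libraries, and at 48.8 to 57.4 CPM in stimulated and 116.4 to 143.3 CPM in unstimulated WT libraries. Nkg7 was the largest of them, at 10.9 CPM in stimulated and 64.4 CPM in unstimulated KO cells. In WT cells it averaged 35.8 CPM with stimulation and 97.5 CPM without it. Nkg7 passed in KO cells (edgeR adjusted p = 0.00404) and not in WT cells (0.0756), and no other tested marker of this list passed. Some went the other way. In KO cells Klrk1 (7.02 CPM with and 0.604 CPM without stimulation) and Klrb1c (5.78 and 5.12 CPM) were higher with stimulation. In WT cells Klrd1 was higher (1.40 and 0.358 CPM). Of these markers 6 were under 1 CPM in stimulated and 5 in unstimulated KO cells, 5 in stimulated and 4 in unstimulated WT cells, and the defining gene Cd8a was at 0 in stimulated WT and unstimulated KO cells and averaged at most 0.875 CPM elsewhere. Their part in the fall of Cd96 was not tested. In such bulk samples, fewer cells of a type and less RNA per cell cannot be told apart.

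Cd28 itself moved less than the genes above, and passed the test in KO cells alone. It was at 341.0, 564.3 and 412.4 CPM in stimulated KO libraries, against 318.7, 287.3 and 282.0 CPM in unstimulated KO libraries. By edgeR its log2 fold change was 0.57 (SE 0.16, adjusted p = 0.0298). The call was lost without stimulated KO replicate 2, where the value was 0.35 (adjusted p = 0.0618), and without unstimulated KO replicate 2 (0.0860) or 3 (0.0971). In WT cells Cd28 was at 317.6, 279.9 and 307.2 CPM with stimulation and at 271.5, 277.1 and 275.5 CPM without it (0.13, SE 0.16, adjusted p = 0.725). The WT groups did not overlap, but by a small step. The alternatives for the KO comparison gave an adjusted p between 0.00484 and 0.162.

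The other 3 members did not pass the test. Cd226 was at 47.6, 19.1 and 32.5 CPM in stimulated KO libraries, against 54.7, 63.1 and 56.6 CPM in unstimulated KO libraries (edgeR log2 fold change -0.81, SE 0.32, adjusted p = 0.112). Without stimulated KO replicate 1 that difference was -1.16 and passed (adjusted p = 0.0246, with a range of 0.0246 to 0.296 over all alternatives). In WT cells Cd226 was at 60.6, 43.0 and 44.2 CPM with stimulation and at 49.9, 39.95 and 58.4 CPM without it, so that the groups overlapped (-0.004, SE 0.32, adjusted p = 0.998).

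Havcr2 was at 51.0, 30.1 and 27.4 CPM in stimulated KO libraries, against 0.0703, 8.19 and 5.55 CPM in unstimulated KO libraries, and at 19.0, 40.6 and 23.9 CPM in stimulated WT libraries, against 0.0774, 5.53 and 10.3 CPM in unstimulated WT libraries. All stimulated values lay above all unstimulated ones. The log2 fold changes of 2.97 (SE 1.38, KO) and 2.39 (SE 1.35, WT) did not pass by edgeR (adjusted p = 0.173 and 0.333), with unstimulated libraries that differed widely. TIM-3 is also carried by myeloid cells, and the summed level of 11 monocyte and macrophage markers was lower with stimulation, at 65.2 to 113.9 CPM in stimulated and 144.2 to 181.4 CPM in unstimulated KO libraries, and 25.8 to 63.9 CPM in stimulated and 157.4 to 280.7 CPM in unstimulated WT libraries. Of these, 3 were under 1 CPM in stimulated KO, 8 in stimulated WT and 2 in each unstimulated group, and Fcgr1 was at 0 in both stimulated groups. Their part in the Havcr2 values was not tested. Lag3 averaged 5.40 ± 1.96 CPM in stimulated and 10.9 ± 2.01 CPM in unstimulated KO cells, and 5.91 ± 1.86 CPM in stimulated and 9.87 ± 1.82 CPM in unstimulated WT cells (SD, n = 3 each). The groups did not overlap, but the edgeR log2 fold changes were -1.014 (SE 0.63, adjusted p = 0.314) in KO and -0.74 (SE 0.63, adjusted p = 0.58) in WT cells.

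**Figure D2:**
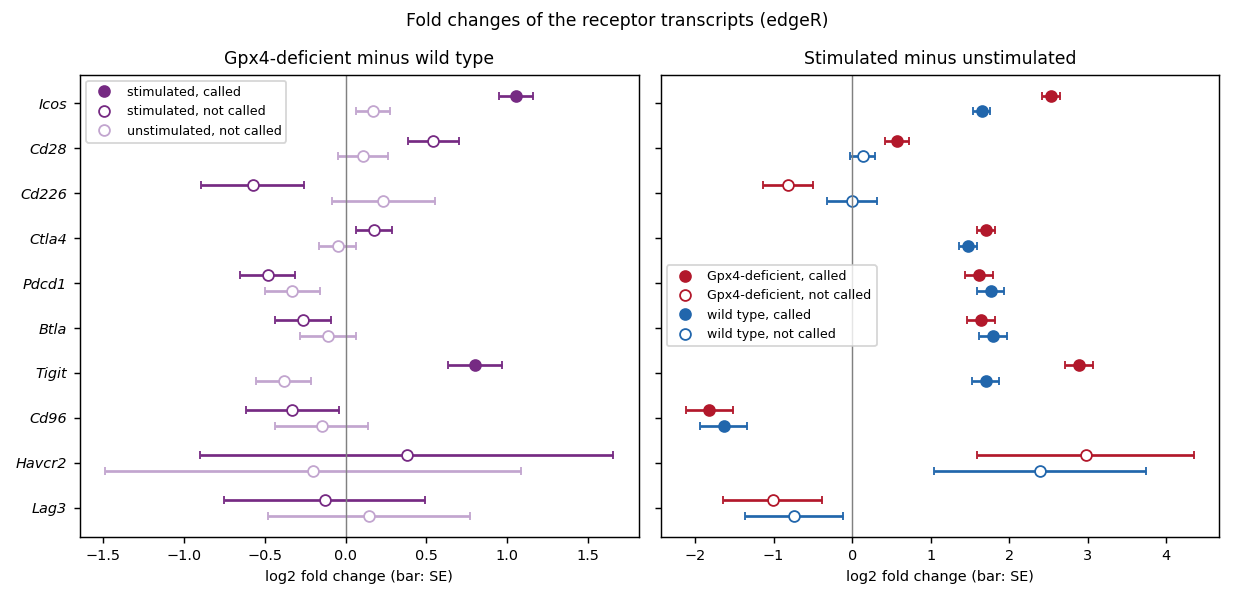
Log2 fold changes of the 10 receptor transcripts from the edgeR fit, with SE bars: Gpx4-deficient minus wild type (left) and stimulated minus unstimulated (right). Filled points passed an adjusted p under 0.05; Icos (1.06) and Tigit (0.80) are the members filled on the left, both in stimulated cells.

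The next comparison asks how KO and WT cells differ after stimulation. Icos and Tigit were higher in KO cells, and the other 8 members did not pass. These 2 of 10 stand beside 1.03% of tested genes that were higher. Icos averaged 1974 ± 252 CPM in stimulated KO and 949.8 ± 23.5 CPM in stimulated WT cells (SD, n = 3 each; edgeR log2 fold change 1.06, SE 0.11, adjusted p = 0.000582), and its lowest KO library, at 1823 CPM, was above its highest WT library, at 974.4 CPM. It kept its call in each alternative run, with an adjusted p of at most 0.0229. Tigit averaged 242.4 ± 37.2 CPM in stimulated KO and 139.3 ± 9.33 CPM in stimulated WT cells (0.80, SE 0.17, adjusted p = 0.0314), again without overlap. Tigit lost its call without stimulated WT replicate 1 (0.0904), 2 (0.0734) or 3 (0.0946) or without stimulated KO replicate 3 (0.0686), and its alternatives ranged from 7.30e-06 to 0.164. The 10 Treg markers summed to 8865 to 9402 CPM in stimulated KO and 8533 to 9108 CPM in stimulated WT libraries, ranges that overlap. Among them only Ikzf2 passed, at 895.6 CPM in stimulated KO and 587.5 CPM in stimulated WT cells (edgeR adjusted p = 0.0203). The 8 markers of conventional CD4 T cells summed to 1318 to 1711 CPM in stimulated KO and 1654 to 2219 CPM in stimulated WT libraries. Here only Ccr7 passed, at 870.6 CPM in stimulated KO and 1354 CPM in stimulated WT cells (edgeR adjusted p = 0.0358). Of the other lists, 4 did not overlap between the stimulated genotypes. The plasma cell markers summed to 492.6 to 548.2 CPM in stimulated KO and 361.9 to 411.6 CPM in stimulated WT libraries, with 1 of 5 under 1 CPM in KO and 2 in WT cells and Tnfrsf17 at 0 in both; Jchain passed the test (adjusted p = 0.0142, edgeR). The 11 monocyte and macrophage markers summed to 65.2 to 113.9 CPM in stimulated KO and 25.8 to 63.9 CPM in stimulated WT libraries, with 3 under 1 CPM in KO and 8 in WT cells. The 8 erythroid and platelet markers summed to 33.1 to 54.2 CPM in stimulated KO and 8.53 to 23.5 CPM in stimulated WT libraries, with 4 under 1 CPM in each and Ppbp at 0 in both. The 10 CD8 and NK cell markers summed to 24.7 to 40.05 CPM in stimulated KO and 48.8 to 57.4 CPM in stimulated WT libraries, and none of them passed. Nkg7 averaged 10.9 CPM in stimulated KO and 35.8 CPM in stimulated WT cells (edgeR adjusted p = 0.0926). Klrk1 (7.02 CPM in KO, 0.461 CPM in WT) and Klrb1c (5.78 CPM in KO, 1.81 CPM in WT) went the other way. The part of these marker lists in the Icos and Tigit differences was not tested. The mitochondrial share, given above, moved with the genotype in the same cells. With mitochondrial genes left out of the scaling the Icos difference was 1.07 (adjusted p = 0.00069).

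PD-1 and BTLA transcripts had lower values in stimulated KO cells without passing the test. Pdcd1 averaged 338.3 ± 49.3 CPM in stimulated KO and 472.4 ± 101 CPM in stimulated WT cells (edgeR log2 fold change -0.48, SE 0.17, adjusted p = 0.169), and Btla 204.6 ± 33.3 CPM in stimulated KO and 246.1 ± 12.1 CPM in stimulated WT cells (-0.27, SE 0.17, adjusted p = 0.455). Cd28 averaged 439.3 ± 114 CPM in stimulated KO and 301.5 ± 19.5 CPM in stimulated WT cells (0.54, SE 0.16, adjusted p = 0.105). Without stimulated KO replicate 1 the Cd28 difference was 0.75 and passed (adjusted p = 0.0166, with a range of 0.0166 to 0.331 over all alternatives). The groups of these 3 genes did not overlap, and in all 5 of 10 members did not, against 20.1% of tested genes. Ctla4 averaged 1056 ± 163 CPM in stimulated KO and 936.0 ± 38.9 CPM in stimulated WT cells, with overlap (0.17, SE 0.11, adjusted p = 0.448). Cd96 (-0.33, SE 0.29), Cd226 (-0.58, SE 0.32), Havcr2 (0.38, SE 1.28) and Lag3 (-0.13, SE 0.63) overlapped between genotypes, with adjusted p from 0.362 to 0.957.

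Without stimulation, 0 of 10 members were called between KO and WT cells by edgeR, where 0.0674% of tested genes were. Tigit had an unadjusted p of 0.0413 and was the single member under 0.05. By DESeq2 and limma-voom 0 members were called as well. Tigit was at 38.1, 29.2 and 31.2 CPM in KO libraries, against 40.4, 47.0 and 41.2 CPM in WT libraries (edgeR log2 fold change -0.38, SE 0.17, adjusted p = 0.861). Tigit thus lay below WT in all 3 unstimulated KO libraries, and above WT in all 3 stimulated ones. Pdcd1 averaged 110.5 ± 7.48 CPM in unstimulated KO and 139.1 ± 19.3 CPM in unstimulated WT cells, also without overlap (-0.33, SE 0.17, adjusted p = 0.916), and Cd28 296.0 ± 19.8 CPM in KO and 274.7 ± 2.91 CPM in WT cells (0.11, SE 0.16, adjusted p = 1). Groups that did not overlap numbered 3 of 10 members, beside 18.3% of tested genes. Icos averaged 340.5 ± 34.4 CPM in unstimulated KO and 303.0 ± 16.9 CPM in unstimulated WT cells, with overlap (0.17, SE 0.11), and Ctla4 324.3 ± 13.9 CPM in KO and 335.7 ± 21.3 CPM in WT cells (-0.05, SE 0.11). The remaining 5 members overlapped between the genotypes, with log2 fold changes from -0.20 (Havcr2) to 0.23 (Cd226). Some marker lists did not overlap here. The neutrophil markers summed to 7.22 to 11.9 CPM in KO and 47.2 to 176.6 CPM in WT libraries. Of these 11 markers, 9 were under 1 CPM in KO and 3 in WT cells. The erythroid and platelet markers summed to 25.6 to 39.3 CPM in KO and 44.8 to 62.9 CPM in WT libraries. Of these 8 markers, 4 were under 1 CPM in KO and 3 in WT cells. The markers of conventional CD4 T cells summed to 1711 to 2260 CPM in KO and 2277 to 2390 CPM in WT libraries. No tested marker of these lists passed by edgeR, and their part in the receptor values was not tested.

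The interaction asks whether stimulation moved a transcript by a different amount in KO than in WT cells. For Icos the response was larger in KO cells by 0.89 on the log2 scale (SE 0.15, adjusted p = 0.0439, edgeR), so 1 of 10 members was called, beside 0.202% of tested genes. That call was narrow. It was lost without any of the 6 WT libraries or any of the 3 unstimulated KO libraries (adjusted p from 0.0549 to 0.167) and held without each stimulated KO library, while the difference itself stayed between 0.78 and 0.99. Tigit had the largest difference in response, 1.18 (SE 0.24), but it did not pass (adjusted p = 0.0848). Without stimulated KO replicate 1 or 2 Tigit passed (0.0335 and 0.0459), with a range of 1.80e-05 to 0.415 over all alternatives. With the pair of libraries that lie apart left out, Tigit passed (0.0478) and Icos did not (0.0621). The estimates were 0.44 (SE 0.22) for Cd28, 0.22 (SE 0.16) for Ctla4, -0.15 (SE 0.24) for Pdcd1, -0.16 (SE 0.25) for Btla and -0.81 (SE 0.45) for Cd226, with adjusted p of at least 0.617. The estimates were -0.18 (SE 0.41) for Cd96, -0.27 (SE 0.88) for Lag3 and 0.58 (SE 1.81) for Havcr2. The comparisons share their libraries (the stimulated KO group enters 3 of the 5), so the calls for Icos are not independent of each other.

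Divided by exon length, levels can be set side by side between genes. The lengths are the bases covered by any GENCODE exon of the gene, from 919 for Tigit to 6122 for Cd28, and which transcripts the authors counted is not stated. In CPM per kb, Icos was highest in stimulated KO cells at 575.5 ± 73.5, before Ctla4 at 453.3 ± 69.9, Tigit at 263.8 ± 40.5 and Pdcd1 at 175.3 ± 25.5 (SD, n = 3). In stimulated WT cells Ctla4 came first at 401.7 ± 16.7, before Icos at 276.9 ± 6.84, Pdcd1 at 244.8 ± 52.3 and Tigit at 151.6 ± 10.2, and Icos and Pdcd1 there did not differ beyond their spread. The lower ranks in stimulated KO cells were Cd28 at 71.8 ± 18.6, Btla at 60.3 ± 9.81, Cd96 at 36.7 ± 17.2, Havcr2 at 13.3 ± 4.74, Cd226 at 6.76 ± 2.91 and Lag3 at 2.56 ± 0.930. Of these, Cd28 and Btla lay within their spread of each other. In unstimulated KO cells Ctla4 (139.2 ± 5.95) and Cd96 (129.8 ± 26.6) led within each other's spread, followed by Icos (99.3 ± 10.0) and Pdcd1 (57.3 ± 3.87). In unstimulated WT cells the same pair led, with Ctla4 at 144.1 ± 9.16 and Cd96 at 143.8 ± 21.3, followed by Icos (88.4 ± 4.91), Pdcd1 (72.0 ± 9.98), Tigit (46.6 ± 3.93) and Cd28 (44.9 ± 0.476).

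**Figure D3:**
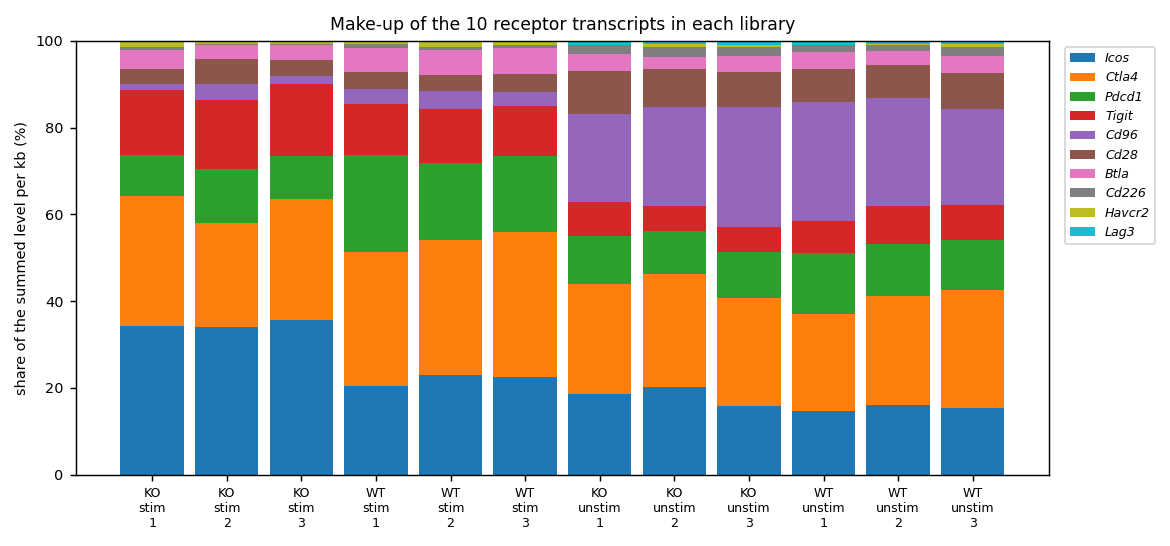
Share of each receptor in the summed level per kb of exon (%) of the 10 transcripts, as stacked bars for the 12 libraries (KO, Gpx4-deficient; WT, wild type; number, replicate). Icos takes 34.0% to 35.6% in stimulated KO and 20.3% to 22.9% in stimulated WT libraries.

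Icos held a larger and Cd96 a smaller share of the receptor set with stimulation, in both genotypes. The summed level per kb was 1553 to 1854 CPM in stimulated KO libraries, 1200 to 1358 CPM in stimulated WT libraries, 522.9 to 574.2 CPM in unstimulated KO libraries and 550.1 to 594.0 CPM in unstimulated WT libraries. Icos held 34.0% to 35.6% of that sum in stimulated KO and 20.3% to 22.9% in stimulated WT libraries, and 15.8% to 20.2% in unstimulated KO and 14.6% to 15.95% in unstimulated WT libraries. Pdcd1 held 9.44% to 12.4% in stimulated KO and 17.5% to 22.5% in stimulated WT libraries. Cd96 held 20.2% to 27.6% in unstimulated KO and 22.1% to 27.5% in unstimulated WT libraries, but 1.39% to 3.52% in stimulated KO and 3.22% to 4.10% in stimulated WT libraries. These shares sum to the whole, so a gain of Icos lowers the others by construction, and they depend on the exon lengths above.

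Receptors that compete for a ligand can be compared within a library, where scaling has no part. Tigit over Cd226, which share CD155, stood at count ratios of 4.49, 12.0 and 8.75 in stimulated KO libraries, against 2.40, 3.34 and 2.91 in stimulated WT libraries. Without stimulation the ratios were 0.697, 0.463 and 0.552 in KO and 0.809, 1.18 and 0.706 in WT libraries. The KO values were above WT with stimulation and below it without, with no overlap in either state, though the unstimulated gap was small (0.697 in KO against 0.706 in WT). As mean log2 ratios this is 2.96 ± 0.72 in stimulated KO and 1.52 ± 0.24 in stimulated WT cells, and -0.83 ± 0.30 in unstimulated KO and -0.19 ± 0.38 in unstimulated WT cells (SD, n = 3). Tigit over Cd96 was 1.69 ± 0.67 in stimulated KO and 0.47 ± 0.12 in stimulated WT cells, without overlap, and overlapped without stimulation (-3.10 ± 0.45 in KO and -2.87 ± 0.25 in WT cells). Cd96 over Cd226 overlapped between the genotypes in both states.

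Ctla4 over Cd28, which compete for CD80 and CD86, was higher with stimulation. The mean log2 ratio was 1.29 ± 0.56 in stimulated and 0.13 ± 0.16 in unstimulated KO cells, and 1.64 ± 0.04 in stimulated and 0.29 ± 0.08 in unstimulated WT cells, with no overlap in either genotype. Stimulated KO replicate 2 had a count ratio of 1.56, against 3.18 and 2.92 in the other stimulated KO libraries and 3.03 to 3.21 in stimulated WT libraries. Icos over Cd28 was 2.19 ± 0.43 in stimulated KO and 1.66 ± 0.12 in stimulated WT cells and overlapped. The same library had the highest Cd28 level. These ratios are given as descriptions, with no test.

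**Figure D4:**
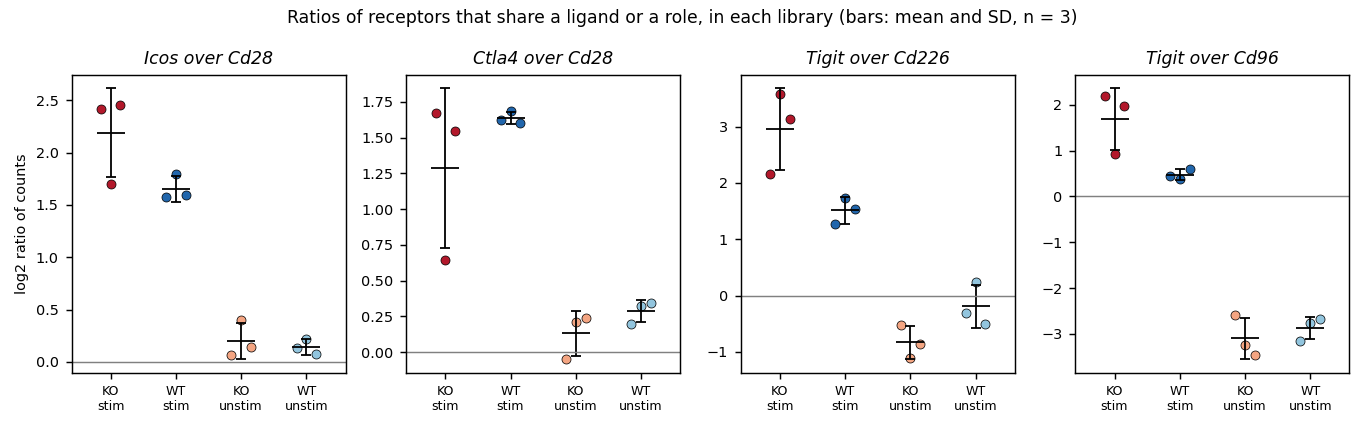
Log2 ratios of counts for pairs of receptors in each of the 12 libraries (KO, Gpx4-deficient; WT, wild type), with mean and SD bars (n = 3). Tigit over Cd226 lies at 2.96 ± 0.72 in stimulated KO and 1.52 ± 0.24 in stimulated WT cells, with no shared range.

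Some genes outside the set followed the same course over the 12 libraries. Likeness was measured as the root mean square difference of centred log2 CPM, among genes of at least 10 CPM on average, and it is a description. The gene nearest to Icos was Il1r2, a decoy receptor for interleukin-1, at 0.23, where the spread of Icos itself was 1.12. Il1r2 was also nearest to Tigit (0.26), followed by the interleukin-2 receptor chain Il2ra (0.27). Nearest to Ctla4 were Gar1 (0.06) and Mia2 (0.12), to Pdcd1 Stx11 (0.17) and to Btla Eif3c (0.13), a subunit of a translation initiation factor. Nearest to Cd28 were Son (0.14) and Elmo1 (0.15), to Cd226 Mtfr1l (0.20) and Kat2a (0.21), and to Lag3 Rfc2 (0.24) and Atox1 (0.27). Second in likeness were Dennd4a for Icos (0.27), Pno1 for Pdcd1 (0.20) and Eef1e1 for Btla (0.15). Cd96 was nearest to Sytl1 (0.25) and then Prkcq (0.27), a kinase downstream of CD28, and Havcr2 was close to no gene (Atf3 at 1.38, Metrnl at 1.40). Within the set, Ctla4 and Btla (0.23), Pdcd1 and Btla (0.25) and Icos and Tigit (0.27) were the closest pairs.

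Ligands, signalling partners and regulators of the receptors give the surroundings of these changes. Between KO and WT cells 0 of 12 tested ligands passed in either state. With stimulation 3 rose and 1 fell in KO cells (median -0.19), and 1 rose and 2 fell in WT cells (median -0.52). Cd274, which encodes the PD-1 ligand PD-L1, averaged 347.4 ± 117 CPM in stimulated and 118.5 ± 33.3 CPM in unstimulated KO cells (edgeR log2 fold change 1.55, adjusted p = 0.00166), and 471.5 CPM in stimulated and 98.2 CPM in unstimulated WT cells (2.26, adjusted p = 0.000127). Lgals9, a reported TIM-3 ligand, fell to 101.4 ± 52.6 CPM in stimulated KO cells, against 392.9 ± 65.8 CPM in unstimulated KO cells (-1.95, adjusted p = 0.00102), and by 2.19 in WT cells (adjusted p = 0.000466). Cd80, a ligand of CD28 and CTLA-4, averaged 31.8 ± 15.7 CPM in stimulated and 0.554 ± 0.337 CPM in unstimulated KO cells (5.84, adjusted p = 0.000683). In WT cells the DNA-binding protein Hmgb1, a reported TIM-3 ligand, fell by 0.61 (adjusted p = 0.00416).

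Of 16 signalling partners, 6 fell with stimulation in each genotype, with medians of -0.30 in KO and -0.38 in WT cells. Lck, the kinase that starts receptor signalling, changed by -1.67 in KO and -1.25 in WT cells by edgeR, and Prkcq by -1.47 in KO and -1.78 in WT cells. Between genotypes 1 of 16 passed, with stimulation, where Lck averaged 578.5 ± 93.0 CPM in KO and 895.0 ± 115 CPM in WT cells (-0.63, adjusted p = 0.0238). Of 14 trafficking and turnover genes 2 rose and 1 fell in each genotype with stimulation and 0 passed between genotypes. Among them Cblb, a ubiquitin ligase that restrains CD28 signals, rose by 1.27 in KO and 1.42 in WT cells (adjusted p = 1.36e-05 and 5.33e-06). Def6, which serves CTLA-4 trafficking, changed by -0.77 in KO and -0.88 in WT cells. The other gene that rose was Ap2m1 in KO cells (0.38) and Cmtm6 in WT cells (0.58).

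Regulators of mRNA decay and transcription changed in part. A list of 9 genes of mRNA decay includes the Roquin genes Rc3h1 and Rc3h2 and Zc3h12a, known to limit Icos mRNA. None of these passed between the stimulated genotypes. The list also holds Malt1, which acts against such factors, so its median is not one of decay factors alone. Of the 9, 2 were higher in stimulated KO than stimulated WT cells and 0 lower (median 0.67, beside 0 over all tested genes). These were Malt1, a protease that cleaves such factors, at 279.5 ± 29.5 CPM in stimulated KO and 140.0 ± 25.2 CPM in stimulated WT cells (0.997, edgeR adjusted p = 0.0126), and Zfp36l2, an AU-rich element binding protein, at 95.4 ± 10.9 CPM in stimulated KO and 38.1 ± 14.2 CPM in stimulated WT cells (1.32, adjusted p = 0.0351). With stimulation Malt1 (1.48 in KO, 0.92 in WT) and Zfp36l1 (1.42 in KO, 1.15 in WT) rose, and Zfp36 (-2.44 in KO, -2.02 in WT) and Zfp36l2 (-0.94 in KO, -1.86 in WT) fell. Of 25 transcription factors known to act in T cells, 12 rose and 5 fell in KO cells and 10 rose and 5 fell in WT cells with stimulation. Irf4 rose by 4.13 in KO and 3.79 in WT cells. Nr4a3 rose by 4.91 in KO and 4.67 in WT cells, and Fos changed by -5.56 in KO and -3.55 in WT cells.

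Between genotypes 3 of these 25 factors were higher and 2 lower in stimulated KO cells. Nr4a1, an orphan nuclear receptor induced by the T cell receptor, averaged 1583 ± 205 CPM in KO and 3174 ± 27.5 CPM in WT cells (-1.004, edgeR adjusted p = 0.00187), and Fos, an AP-1 subunit, 70.1 ± 12.9 CPM in KO and 127.7 ± 10.2 CPM in WT cells (-0.86, adjusted p = 0.0076). Maf, a factor of effector cells, averaged 164.4 ± 34.9 CPM in KO and 55.4 ± 12.6 CPM in WT cells (1.57, adjusted p = 0.0134). Without stimulation Fos (1.14) and Jun (1.09) were higher in KO cells. With stimulation Fos (-5.56 in KO, -3.55 in WT) and Jun (-3.27 in KO, -2.03 in WT) fell further in KO cells. Nr4a1 rose less in KO (1.73) than in WT cells (3.01). The interactions of Fos, Nr4a1 and Jun were -2.01, -1.28 and -1.24 (edgeR adjusted p = 0.00206, 0.0204 and 0.0492). Of 21 other receptors outside the TNF receptor family, Cd84 was higher (1.02, adjusted p = 0.0192) and Vsir, which encodes the checkpoint VISTA, lower (-0.61, adjusted p = 0.0233) in stimulated KO than stimulated WT cells. With stimulation 4 of these 21 rose and 3 fell in each genotype, among them Cd200, a ligand of a myeloid inhibitory receptor, which rose by 2.30 in KO and 2.44 in WT cells. The adhesion receptor Cd2 rose by 0.93 in KO and 0.89 in WT cells, and Slamf1 by 1.33 in KO and 1.87 in WT cells. Vsir rose by 1.00 in WT cells. The lists were drawn up with earlier results of these data known, and their counts are given as descriptions.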

How the data were processed

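Stranded mRNA libraries were made from 600 ng RNA of sorted Treg cells, per the labels' protocols, and 12 were analysed. The values are expected counts per gene that the authors obtained with RSEM and deposited in 1 table. Such estimates can be fractional, as 14.8% to 18.1% of values a library were. The submitters' processing notes name GRCm38. The aligner, the annotation and the strand setting are not stated. Columns were matched to samples by title, and 0 were left over. Values were rounded and tested with edgeR 4.0.16 under R 4.3.3, by its quasi-likelihood test on 4 group means over all 12 libraries (robust dispersions, TMM, filterByExpr by group, 8 residual degrees of freedom), with Benjamini-Hochberg adjustment over 14827 genes. The script was tested on simulated data. The SE is the log2 fold change divided by the root of the F statistic. Alternatives were DESeq2 1.42.0, DESeq2 size factors in edgeR, limma-voom (limma 3.58.1), no filter, scaling without 13 mitochondrial genes, only the 6 libraries compared, a replicate block and leaving out each library. The members and the gene lists were chosen with earlier results of these data known. Named genes are all members, Gpx4 and Foxp3, up to 3 called genes a list and comparison in order of adjusted p, and the 2 genes nearest to each member. Summed cell type markers are given where the libraries of compared groups did not overlap, and for Treg and conventional CD4 T cells. A result of the list of signalling partners is not reported here.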

Additional observations from a re-analysis of the deposited data

Results flagged for a closer look

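Icos was flagged because its response to stimulation differed between the genotypes by the interaction test. The response was 2.54 (SE 0.11) in Gpx4-deficient and 1.65 (SE 0.11) in wild-type cells on the log2 scale, a difference of 0.89 (SE 0.15, adjusted p = 0.0439, edgeR). The 3 stimulated Gpx4-deficient libraries were all above the 3 stimulated wild-type libraries, while the unstimulated groups overlapped. This difference in response was positive in each alternative, but its adjusted p ran from 2.32e-05 (DESeq2) to 0.312 (replicate block). With the 2 libraries that lie apart left out, a choice made after seeing the data, it was 0.81 and did not pass (edgeR adjusted p = 0.0621). Groups of 3 libraries are too small to settle whether a library is an outlier.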

How the results depend on the processing

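The rises of Icos, Ctla4, Pdcd1, Btla and Tigit and the fall of Cd96 with stimulation, in both genotypes, and the higher Icos level in stimulated Gpx4-deficient cells, kept their direction and their call in each alternative. Of the counts of members called, that between genotypes in stimulated cells (2) was 3 with DESeq2, 1 with the 6 libraries compared alone and 1 with the replicate block, and 1 to 3 without a single library. The interaction count (1) was 2 with DESeq2, 0 with limma-voom, 0 with the replicate block and 0 to 2 without a single library. The cause was not tested. Same-numbered libraries did not deviate together (correlations of deviations from -0.024 to 0.030, 9 of 24 best with their own number), so the numbers were not treated as pairs. Under the replicate block Tigit between stimulated genotypes (adjusted p = 0.0799), Cd28 in Gpx4-deficient cells (0.0901) and the Icos interaction (0.312) lost their calls.

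Called genes over the whole table depended on the method. Between unstimulated genotypes they numbered 10 by edgeR, 188 by DESeq2, 18 by limma-voom and 3 with the block. Between stimulated genotypes they numbered 337, 1586 by DESeq2, 22 with 6 libraries and 171 with the block. With stimulation they numbered 2266 in Gpx4-deficient and 1709 in wild-type cells, 3628 and 2634 by DESeq2, and 1022 and 3499 with 6 libraries. The interaction gave 30, with 435 by DESeq2, 0 by limma-voom, 0 with the block and 57 without the 2 libraries that lie apart, an alternative chosen after seeing the data.

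Sign changes were confined to differences that did not pass. With the pair of libraries that lie apart left out, Havcr2 without stimulation was 0.37, Lag3 between stimulated genotypes 0.090 and Cd226 in wild-type cells 0.018. Without a single library, the unstimulated genotype differences ranged from -0.92 to 0.75 for Havcr2, -0.085 to 0.019 for Ctla4, -0.28 to 2.8e-05 for Cd96 and -0.18 to 0.042 for Btla. The stimulated genotype difference of Lag3 ranged from -0.42 to 0.22, and the response of Cd226 in wild-type cells from -0.16 to 0.14. Interactions ranged from -0.33 to 1.34 for Havcr2, -0.23 to 0.035 for Pdcd1, -0.59 to 0.050 for Lag3 and -0.60 to 0.12 for Cd96. By DESeq2 Cd28 between stimulated genotypes (0.0193), Lag3 in Gpx4-deficient cells (0.0447) and the Tigit interaction (1.80e-05) passed as well. Havcr2 and Lag3 had wide spreads between libraries, so a missing call for these genes does not show equal levels. Havcr2 was near 0 in replicate 1 of both unstimulated groups (0.0703 CPM in Gpx4-deficient and 0.0774 CPM in wild-type cells).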
